A study of Mus musculus with 34 samples.

Results

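A set of 9 genes of the bone morphogenetic protein (BMP) pathway were followed across all libraries of a study of the MTA proteins in mouse embryonic stem (ES) cells. They are the ligand genes Bmp2, Bmp4 and Bmp7, the target genes Id1, Id2, Id3 and Id4, and the feedback inhibitors Smad6 and Bambi. They were chosen by name for their place in the pathway, with earlier results of these data known. All 9 were found by Ensembl identifier among the 48709 genes listed in the series. The study asked how ES cells respond when Mta1, Mta2 and Mta3 are removed singly or together. These genes encode the MTA subunits of the Nucleosome Remodelling and Deacetylation (NuRD) complex, and the study found those subunits largely redundant in function. RNA-seq counts were available for 34 libraries.

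The Mta123 set has 16 libraries, with 4 in each of its 4 groups, and the labels number them by line (1 or 2) and by library within the line, so that 2_1 is the library numbered 1 of line 2. Mta123KO cells carry mutations of all 3 genes: Mta1 and Mta3 were deleted with Cre from loxP-flanked alleles, and Mta2 carries a deletion on one allele and a puromycin cassette in place of most exons on the other. The Control cells are not fully wild type, since the study lists them as carrying a mutant allele of Mta1 beside loxP-flanked alleles of Mta1 and Mta3, with Mta2 intact. The label 2iL stands for cells in inhibitors of Mek and Gsk3 with LIF, the medium in which ES cells self-renew. The label 48 h stands for cells kept 48 h in N2B27 medium lacking both inhibitors and LIF, towards neuroectoderm. For the Mta123 set the file names give the opposite culture, and the naive pluripotency markers given below go against the labels in both genotypes. The other 18 libraries are single mutants labelled 2iL, with 3 libraries of each genotype: Mta1_del and Mta3_del cells, made with Cre, beside their Mta1_flox and Mta3_flox parents, and Mta2_KO cells, which are a single ES line, beside Mta2_WT cells. The strain is labelled 129/Ola throughout.

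BMP ligands bind pairs of type I and type II serine/threonine kinase receptors, which phosphorylate SMAD1, SMAD5 and SMAD9, and these enter the nucleus with SMAD4 to switch on target genes. The Id genes are the best known of those targets, and their proteins bind E proteins and keep basic helix-loop-helix factors from DNA. In mouse ES cells, BMP acting through Id genes is known to sustain self-renewal together with LIF, and withdrawal of the signal is part of neural commitment. Smad6 blocks the receptor-activated SMADs and Bambi is a pseudoreceptor without kinase activity, and both are induced by the pathway that they restrain.

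Libraries of the Mta123 set held 37855790 to 57602285 counts and single-mutant libraries 13105820 to 40613585. Values are given as CPM, read counts scaled to a common TMM-normalized library size, and each set was normalized separately. Mta2 was counted at 4.71 to 9.0 CPM in Mta123KO and at 111.2 to 128.8 CPM in Control in the libraries labelled 2iL, and at 6.52 to 10.4 against 184.6 to 201.4 CPM in those labelled 48 h. Reads of the other targeted genes remained: with the 2iL label Mta1 was at 19.4 to 30.0 against 34.8 to 48.6 CPM and Mta3 at 14.0 to 23.8 against 57.3 to 74.9 CPM, and with the 48 h label Mta1 was at 15.5 to 20.6 against 23.4 to 36.7 CPM and Mta3 at 9.52 to 21.4 against 36.4 to 42.8 CPM. In the single mutants, Mta2 was at 9.23 to 11.9 CPM in Mta2_KO against 231.5 to 247.3 CPM in Mta2_WT, Mta3 at 9.65 to 12.8 CPM in Mta3_del against 60.6 to 70.4 CPM in Mta3_flox, and Mta1 at 38.5 to 48.0 CPM in Mta1_del against 69.0 to 104.7 CPM in Mta1_flox, a difference that did not pass the test (adjusted p = 1, edgeR). File names give the opposite culture to the sample labels for the 16 libraries of the Mta123 set. The labels were followed, but the 9 naive pluripotency markers summed to 167.8 to 253.7 CPM in Control labelled 2iL and to 3744 to 4121 CPM in Control labelled 48 h, against their labels. The formative epiblast markers went the other way, at 763.2 to 1302 and 74.0 to 85.1 CPM. So did the neural markers, at 74.5 to 96.2 and 24.5 to 29.0 CPM. In Mta123KO the naive markers also went against the labels, at 432.5 to 549.2 CPM labelled 2iL and 1922 to 2849 CPM labelled 48 h. The formative markers in Mta123KO summed to 228.9 to 309.7 and 77.6 to 109.8 CPM. The neural markers there overlapped, at 32.8 to 42.85 and 31.2 to 39.4 CPM. In the single mutants, labelled 2iL, the naive markers summed to 3294 to 5907 CPM. Exchanging the labels would swap the comparisons of Mta123KO with Control between cultures and reverse the sign of every change with culture and of the interaction. None of the markers of naive, formative or general pluripotency, primitive endoderm, trophoblast, mesoderm, neural cells or fibroblasts was at 0 in all libraries of a group. In bulk RNA a change in the share of cells of a type and a change in RNA per cell cannot be told apart.

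The promoters of Id2, Id3 and Id4 are shown because these genes behaved differently from each other below. Id2 differed with genotype under both labels and Id3 with culture in Control. Id4 differed with culture in Control and with genotype under the 48 h label. Each run holds 250 bases before and 50 bases after the RefSeq start in GRCm38.p6, read 5′ to 3′ on the gene's strand, at chr12:25096043-25096342 on the minus strand for Id2, chr4:136143572-136143871 on the plus strand for Id3 and chr13:48260866-48261165 on the plus strand for Id4. Capitals mark GGCGCC, a GC-rich motif bound by BMP-activated SMADs, the shorter SMAD motif GTCT or its reverse complement AGAC, and the CCAAT box or its reverse complement ATTGG.
Id2: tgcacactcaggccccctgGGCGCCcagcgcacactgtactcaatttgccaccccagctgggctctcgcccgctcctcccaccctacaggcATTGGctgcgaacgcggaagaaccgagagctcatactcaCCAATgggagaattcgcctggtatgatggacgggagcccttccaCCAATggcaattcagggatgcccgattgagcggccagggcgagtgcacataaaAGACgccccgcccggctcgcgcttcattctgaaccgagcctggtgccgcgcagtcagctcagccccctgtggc
Id3: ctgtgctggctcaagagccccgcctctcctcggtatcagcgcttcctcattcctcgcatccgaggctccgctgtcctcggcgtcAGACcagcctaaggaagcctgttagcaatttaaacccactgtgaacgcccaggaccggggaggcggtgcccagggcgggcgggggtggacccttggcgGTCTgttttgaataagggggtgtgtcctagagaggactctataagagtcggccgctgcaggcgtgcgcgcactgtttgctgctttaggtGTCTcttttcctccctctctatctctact
Id4: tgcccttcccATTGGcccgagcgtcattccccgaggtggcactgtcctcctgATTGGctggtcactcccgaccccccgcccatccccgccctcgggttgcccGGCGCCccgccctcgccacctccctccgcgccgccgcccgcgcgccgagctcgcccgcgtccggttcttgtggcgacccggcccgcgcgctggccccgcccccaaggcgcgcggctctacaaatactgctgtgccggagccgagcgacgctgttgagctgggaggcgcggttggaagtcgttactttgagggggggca
GGCGCC occurred 1 time in Id2 and 1 time in Id4 and was not found in Id3, against a share of 11.9% of 32851 mouse promoters. GTCT or AGAC occurred 3 times in Id3, 1 time in Id2 and not in the Id4 window, while 88.0% of promoters hold it. CCAAT boxes in either orientation occurred 3 times in Id2 and 2 times in Id4, with none in Id3, where 37.4% of promoters hold one. No marked motif overlapped another in these windows. The windows of Id2 and Id3 lie wholly inside the gene spans given below, which come from GENCODE, and that of Id4 lies before its span. The annotations thus place the starts differently, and the motif counts hold for these windows only. A match in letters is a description of the sequence and not a bound site.

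Levels of different genes were compared per kilobase (kb) of annotated exon. In Control labelled 2iL, Id3 stood highest at 4.65 CPM per kb, followed by Smad6 at 2.44 and Bambi at 1.65, and Id4 and Bmp2 were lowest at 0.141 and 0.0180 CPM per kb. The libraries of Id3 and Smad6 overlapped on this scale, as did those of Bambi, Id1 and Id2 in turn. In Mta123KO labelled 2iL the order opened with Id2 at 18.3 CPM per kb, ahead of Id3 at 8.26 and Bmp7 at 3.85, each overlapping its neighbour. In Control labelled 48 h, Id3 again led at 14.0 CPM per kb, above every library of the next gene, Bmp7, at 2.77, and the levels of Bmp7, Id4, Smad6, Id1, Bambi and Bmp4 overlapped from each gene to the next. Bmp2 was the lowest member in each of the 10 groups. Id2 changed rank most between genotypes, from the lowest but for Bmp2 in Control labelled 48 h to 18.4 CPM per kb in Mta123KO labelled 48 h, where it was highest.

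**Figure D1:**
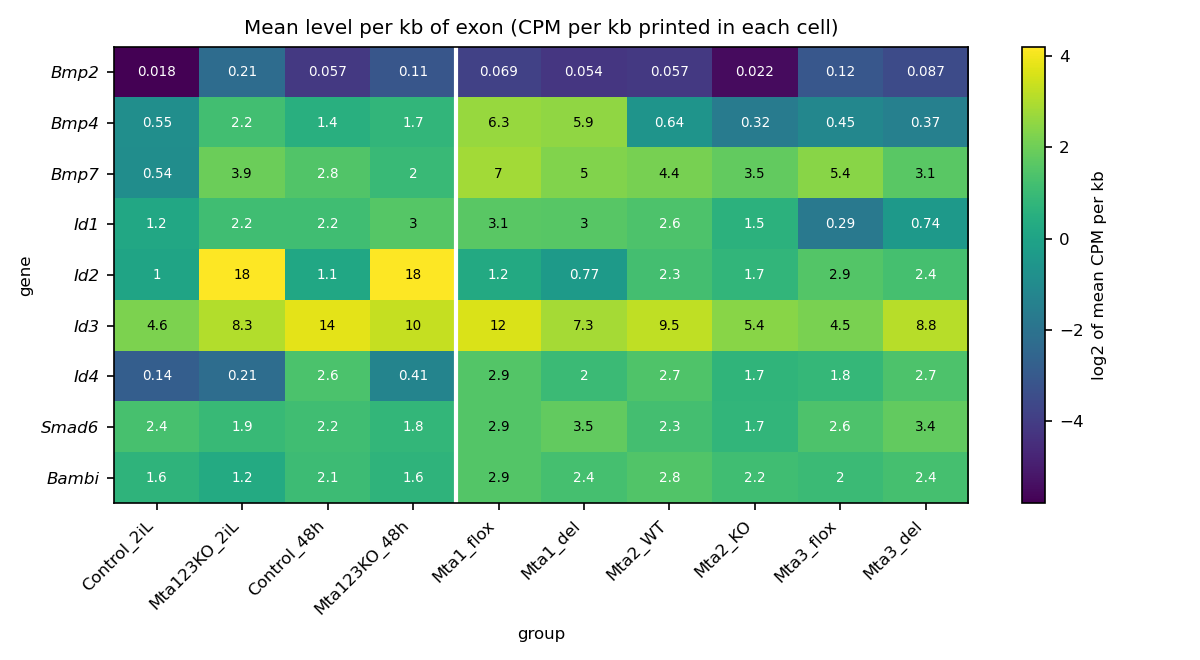
Mean level of each member (rows) in each of the 10 groups (columns) in CPM per kb of exon, printed in the cells and coloured on a log2 scale. The white line separates the 4-library groups of the Mta123 set from the 3-library groups of the single mutants, which were normalized separately. Id2 stands at 18.3 and 18.4 CPM per kb in the Mta123KO groups and between 0.774 and 2.85 in every other group.

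Mta123KO was compared with Control under each culture label. In the libraries labelled 2iL, 4 of the 9 members rose and none fell, and all 4 (Bmp2, Bmp4, Bmp7 and Id2) exceeded a log2 fold change of 1. Among all 21651 genes tested there, 27.1% rose and 24.2% fell at an adjusted p below 0.05, and 13.2% rose and 7.43% fell with a log2 fold change beyond 1 as well. The median log2 fold change was 0.95 over the members and 0.01 over all genes tested. With the 48 h label, 1 member rose (Id2) and 1 fell (Id4), both beyond a log2 fold change of 1, where 26.6% of 21079 genes rose and 23.4% fell, and 14.1% rose and 5.93% fell beyond that fold. With spike-in scaling the share of all calls that were higher went from 53.2% to 44.2% with the 48 h label, and Id2 and Id4 kept their calls. These backgrounds are high, so that the counts of members by themselves do not stand apart, and the sizes given gene by gene carry the description. The 2 lines of a genotype are not independent of their repeat libraries, and p-values here measure the spread between libraries, which may be partly technical.

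Culture was compared within each genotype, where the same lines were taken to both conditions. In Control, 5 of 8 members tested were higher with the 48 h label and none was lower. Of all 21240 genes, 29.5% were higher and 29.0% lower. Beyond a log2 fold change of 1 were 4 members, all higher (Bmp4, Bmp7, Id3 and Id4), against 10.4% of genes higher and 13.2% lower. In Mta123KO none of the 9 members passed the test, where 12.4% of 21505 genes were higher and 10% lower, and 4.84% and 4.62% beyond the fold. By the same edgeR test 2 of the 9, Bmp7 and Id4, had an unadjusted p below 0.05, and DESeq2 called 1, Bmp7. With the line as a block, which uses the shared lines, Bmp7 and Bmp2 passed as lower and Bambi as higher in Mta123KO. Id1 joined the members called in Control with this block. The interaction, which is the genotype difference labelled 48 h minus that labelled 2iL, was negative and past the threshold for 3 of 9 members (Bmp2, Bmp7 and Id4), with 12.5% of 22973 genes positive and 10.6% negative, and 7.66% and 5.37% beyond a log2 difference of 1. These comparisons share groups of libraries with each other.

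**Figure D2:**
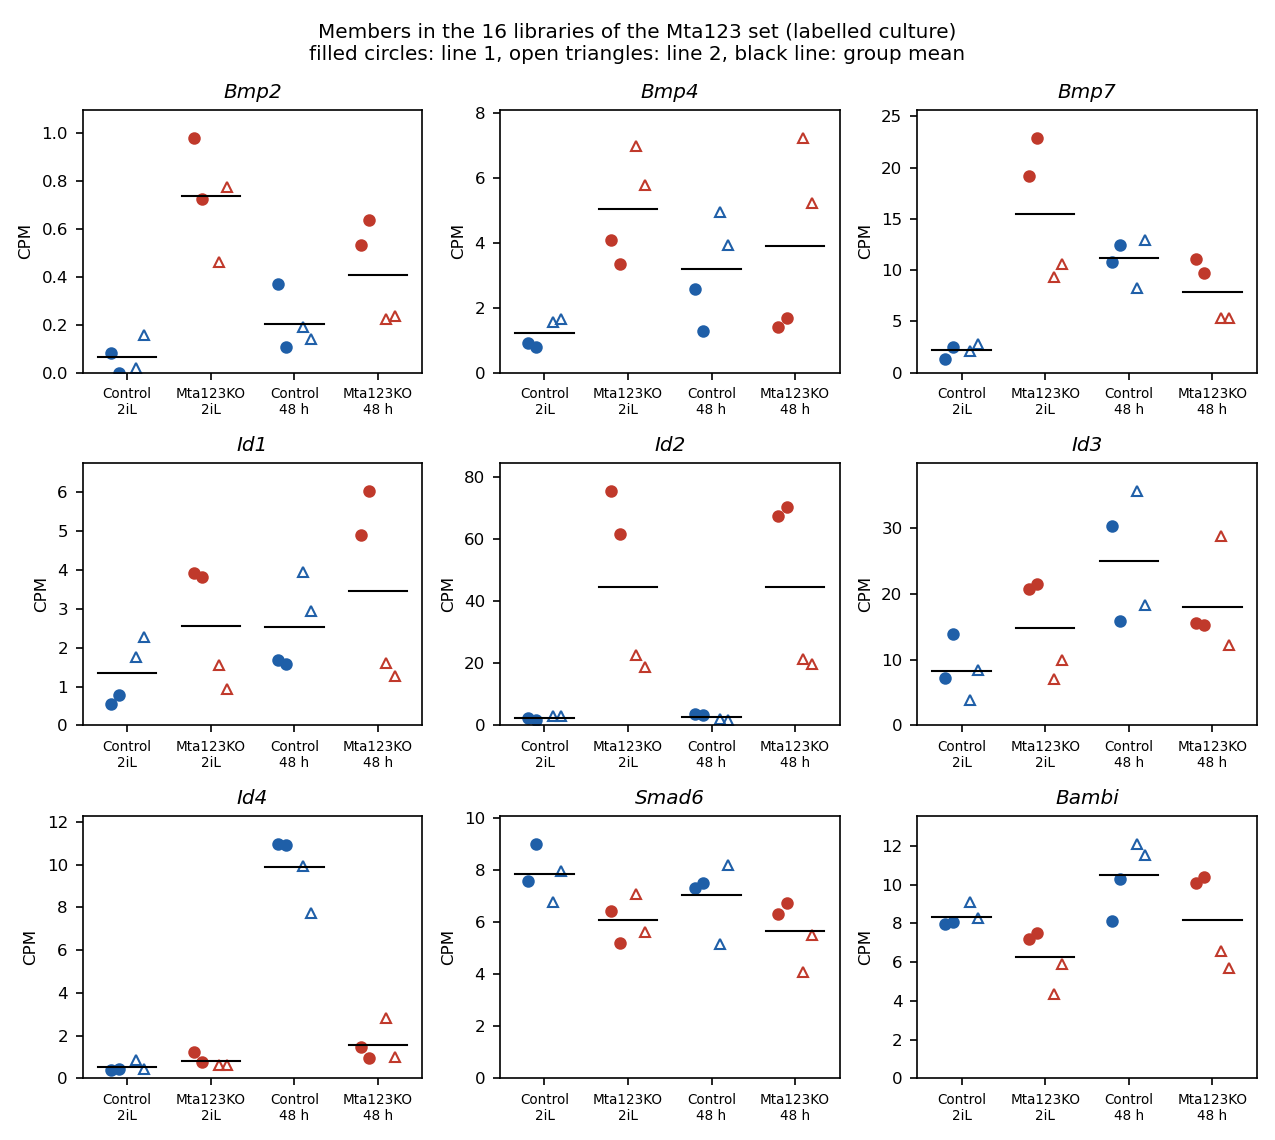
Level of each member in CPM on a linear axis from 0 in the 16 libraries of the Mta123 set, with Control in blue and Mta123KO in red, filled circles for line 1, open triangles for line 2 and a black line at the mean of 4 libraries. Id2 separates the genotypes in both cultures, while Id4 is high in Control labelled 48 h only, at 7.76 to 11.0 CPM.

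The ligand gene Bmp7 (ENSMUSG00000008999, chromosome 2, 172868012 to 172940321, minus strand, GRCm38), which signals in many epithelial and neural tissues, rose in Mta123KO with the 2iL label and with culture in Control. With the 2iL label it was counted at 1.32, 2.45, 2.07 and 2.81 CPM in Control and at 19.2, 22.8, 9.35 and 10.6 CPM in Mta123KO. Every Mta123KO library was above every Control library, and those of line 1 were above those of line 2. The log2 difference was 2.86 (standard error 0.35, adjusted p = 0.000185, edgeR), or 7.25-fold. Control labelled 48 h stood at 10.8, 12.5, 8.28 and 13.0 CPM and Mta123KO at 11.1, 9.72, 5.32 and 5.31 CPM. Here the genotypes overlapped through line 1, and the log2 fold change of -0.49 did not pass the test (adjusted p = 0.151, edgeR). Bmp7 was thus 5.20-fold higher with the 48 h label in Control (log2 2.38, standard error 0.22, adjusted p = 4.25e-06, edgeR). In Mta123KO its log2 difference of -0.98 did not pass when the shared lines were left out of the fit (adjusted p = 0.0864, edgeR). With the line as a block, Bmp7 was lower with the 48 h label in Mta123KO (log2 -0.97, adjusted p = 7.80e-06, edgeR). The interaction was -3.34 on the log2 scale (standard error 0.46, adjusted p = 9.54e-05, edgeR).

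Bmp4 (ENSMUSG00000021835, chromosome 14, 46383520 to 46390669, minus strand), the ligand that cooperates with LIF in ES cell culture, followed a similar order in the libraries labelled 2iL. Control libraries held 0.919, 0.789, 1.55 and 1.64 CPM and Mta123KO libraries 4.08, 3.35, 6.99 and 5.77 CPM. The genotypes did not overlap, and in both the libraries of line 2 were the higher. Bmp4 rose 4.16-fold in Mta123KO (log2 2.06, standard error 0.31, adjusted p = 0.000661, edgeR). Control labelled 48 h held 2.57, 1.29, 4.93 and 3.92 CPM and Mta123KO 1.41, 1.69, 7.21 and 5.22 CPM. The ranges overlapped almost entirely, with a log2 difference of 0.30 (standard error 0.56, adjusted p = 0.683, edgeR). In Control the gene was 2.62-fold higher with the 48 h label (log2 1.39, adjusted p = 0.00866, edgeR), and its libraries overlapped between cultures. With the libraries of each line summed it was no longer called (adjusted p = 0.0538, edgeR). The interaction for Bmp4 was -1.75 (adjusted p = 0.0861, edgeR), and with the line as a block -1.93 (adjusted p = 0.000261). The annotation places Gm15222 within Bmp4 and the end of Gm15217 over its last bases, both on the opposite strand, and whether counting used the strand of reads is not given in the sources used here, so reads of either strand cannot be told apart.

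Bmp2 (ENSMUSG00000027358, chromosome 2, 133552159 to 133562885, plus strand), a close relative of Bmp4, was near the limit of detection. Control libraries labelled 2iL held 4, 0, 1 and 7 reads of it and Mta123KO libraries 46, 32, 19 and 36, which is 0.0639 ± 0.0696 against 0.734 ± 0.212 CPM (SD, n = 4). The ranges were apart, and the log2 difference of 3.51 (standard error 0.61, adjusted p = 0.0013, edgeR) rests on these few reads. Control labelled 48 h held 21, 4, 8 and 6 reads and Mta123KO 23, 29, 10 and 13, and the groups overlapped (log2 0.95, adjusted p = 0.135, edgeR). Its interaction of -2.54 (adjusted p = 0.0411, edgeR) passed the test in 6 of 16 fits that each left out 1 library, with adjusted p up to 0.125 without library 1_1 of Control labelled 48 h, the highest of that group, and had an adjusted p of 0.158 with the libraries of each line summed. Bmp2 was left out of the test of culture in Control by the filter on low counts. Pluripotency markers moved beside the rise of the 3 ligands with the 2iL label. The naive markers summed to 432.5 to 549.2 CPM in Mta123KO against 167.8 to 253.7 CPM in Control (5 of 9 called higher, none lower), and the formative markers to 228.9 to 309.7 against 763.2 to 1302 CPM (1 of 5 higher, 4 lower). Their part in the ligand results was not tested.

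Id2 (ENSMUSG00000020644, chromosome 12, 25093799 to 25097140, minus strand), the member of the family with roles in trophoblast, lymphoid and mammary development, showed the largest genotype difference of the 9. Id2 was counted with the 2iL label at 2.50, 1.64, 2.92 and 2.93 CPM in Control and at 75.4, 61.7, 22.8 and 18.7 CPM in Mta123KO. In those labelled 48 h the values were 3.67, 3.28, 2.18 and 1.82 CPM and 67.5, 70.3, 21.3 and 19.8 CPM. The lowest Mta123KO library was above the highest Control library in each culture, and line 1 of Mta123KO was above its line 2 in both. Id2 rose 18.1-fold with the 2iL label (log2 4.18, standard error 0.50, adjusted p = 0.000166, edgeR) and 16.4-fold with the 48 h label (log2 4.03, standard error 0.50, adjusted p = 0.000206, edgeR). No change with culture passed the test in Control (log2 0.15, adjusted p = 0.628, edgeR) or in Mta123KO (log2 0.00, standard error 0.58, adjusted p = 0.997, edgeR), and the interaction was -0.14 with a standard error of 0.70. Of the 4 trophoblast markers Cdx2, Elf5, Gata3 and Hand1, all 4 were called higher in Mta123KO with the 2iL label, and with the 48 h label 2 of the 3 tested were (Gata3 and Elf5). The sum of the 4 was 0.939 to 1.74 CPM in Control labelled 2iL, 42.9 to 51.7 CPM in Mta123KO line 1 and 8.24 to 8.71 CPM in Mta123KO line 2. The sum with the 48 h label was 1.42 to 1.77 CPM in Control, 13.2 to 14.8 CPM in line 1 and 5.45 to 6.37 CPM in line 2. All 4 markers reached 1 CPM in at least 1 library of each Mta123KO group, and their part in the Id2 result was not tested. The 6 fibroblast markers summed to 1.91 to 3.04 CPM in Control labelled 2iL and 7.66 to 14.8 CPM in Mta123KO labelled 2iL, and to 7.26 to 12.7 and 8.91 to 15.7 CPM with the 48 h label; their part was not tested either.

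Id4 (ENSMUSG00000021379, chromosome 13, 48261228 to 48266026, plus strand), known from neural progenitors and spermatogonia, went the other way. It was low with the 2iL label in both genotypes, at 0.40, 0.457, 0.870 and 0.443 CPM in Control and 1.25, 0.748, 0.631 and 0.646 CPM in Mta123KO. With the 48 h label Control held 11.0, 10.9, 9.96 and 7.76 CPM and Mta123KO 1.48, 0.967, 2.81 and 1.0 CPM. Every Control library labelled 48 h was above every other library of the Mta123 set. The naive marker sum followed the same order of groups with the 48 h label, at 1922 to 2849 CPM in Mta123KO against 3744 to 4121 CPM in Control, and its part in the Bmp7 and Id4 results was not tested. Id4 was 18.3-fold higher with the 48 h label in Control (log2 4.20, standard error 0.23, adjusted p = 7.08e-08, edgeR), and its log2 difference of 0.92 in Mta123KO did not pass (adjusted p = 0.138, edgeR). Mta123KO was 6.30-fold below Control with the 48 h label (log2 -2.66, standard error 0.33, adjusted p = 0.0002, edgeR) and not separated from it with the 2iL label (log2 0.61, adjusted p = 0.158, edgeR). The interaction was -3.26 (standard error 0.49, adjusted p = 0.000214, edgeR). Genes A330033J07Rik and Gm49291 overlap the start of Id4 on the opposite strand, so that here too reads of either strand cannot be told apart.

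Id3 (ENSMUSG00000007872, chromosome 4, 136143497 to 136145755, plus strand), a partner of Id1 in vascular and neural development, differed with culture in Control. Control labelled 2iL gave 7.13, 13.9, 3.85 and 8.45 CPM and Control labelled 48 h 30.3, 15.8, 35.6 and 18.3 CPM, without overlap. This was a 3.04-fold difference (log2 1.60, standard error 0.35, adjusted p = 0.00242, edgeR). Mta123KO gave 20.7, 21.5, 7.01 and 9.99 CPM with the 2iL label and 15.6, 15.3, 28.8 and 12.2 CPM with the 48 h label. These overlapped with each other and with Control in both cultures, and neither genotype comparison passed (log2 0.85, adjusted p = 0.138, and log2 -0.47, adjusted p = 0.248, edgeR). The interaction for Id3 was -1.31 (standard error 0.59) and did not pass either (adjusted p = 0.127, edgeR). The change with culture was thus not shown to differ between the genotypes.

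Id1 (ENSMUSG00000042745, chromosome 2, 152736251 to 152737410, plus strand), the classical BMP-responsive gene, split by line. Control labelled 2iL gave 0.539 and 0.789 CPM in line 1 and 1.76 and 2.28 CPM in line 2, and Mta123KO 3.93 and 3.81 CPM in line 1 and 1.55 and 0.925 CPM in line 2. In those labelled 48 h, the values were 1.69 and 1.58 CPM and 3.95 and 2.94 CPM in the Control lines and 4.90 and 6.02 CPM and 1.61 and 1.26 CPM in the Mta123KO lines. Line 2 was the higher Control line and the lower Mta123KO line in each culture. With lines pooled, Id1 passed neither genotype comparison (adjusted p = 0.187 labelled 2iL and 0.5 labelled 48 h, edgeR). Its log2 difference of 0.93 with culture in Control had an adjusted p of 0.088 in edgeR, and with the line as a block it was 1.01 with an adjusted p of 0.000728.

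The inhibitors moved little. Smad6 (ENSMUSG00000036867, chromosome 9, 63953076 to 64022059, minus strand) ranged from 4.09 to 8.99 CPM over the 16 libraries. Its log2 fold change in Mta123KO was -0.35 with the 2iL label (adjusted p = 0.057, edgeR; 0.0377 in DESeq2) and -0.31 with the 48 h label (adjusted p = 0.217, edgeR). Bambi (ENSMUSG00000024232) ranged from 4.37 to 12.1 CPM. Its 4 Control values of 7.95 to 9.11 CPM with the 2iL label were all above the Mta123KO values of 4.37 to 7.52 CPM, yet the log2 fold change of -0.40 had an adjusted p of 0.0702 in edgeR (0.0455 in DESeq2). With the 48 h label it was -0.35 (adjusted p = 0.205, edgeR). Bambi was slightly higher with the 48 h label in Control, by 0.34 on the log2 scale (standard error 0.12, adjusted p = 0.0324, edgeR), and this was lost in 5 of 8 fits that left out 1 library, with the adjusted p reaching 0.0899 without library 2_1 of Control labelled 48 h and 0.191 in 1 fit of all 16 libraries. With the line as a block, Bambi in Mta123KO was 0.36 higher with that label (adjusted p = 0.0191, edgeR) and Bmp2 had a log2 difference of -0.92 (adjusted p = 0.0194, edgeR).

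Each Mta123KO line was also set against all 4 Control libraries of its culture, so that the line comparisons share their controls. Their p-values measure the spread between libraries of a line and not that between lines. With the 2iL label the Control lines themselves had a log2 difference of -1.61 at Id1. In the libraries labelled 2iL, line 1 had 8 of 9 members called (7 higher and 1 lower), where 65.5% of 23279 genes were called in either direction, and line 2 had 5 (4 higher and 1 lower), where 58.0% were. Bmp2, Bmp4, Bmp7 and Id2 were higher in both lines. Id2 was 27.9-fold above Control in line 1 (log2 4.80, standard error 0.12) and 8.49-fold in line 2 (log2 3.09, standard error 0.13). Id1 and Id3 were higher in line 1 alone by this test, with log2 fold changes of 1.74 and 1.40 (adjusted p = 4.28e-06 and 0.00017, edgeR) against 0.10 and 0.10 in line 2 (adjusted p = 0.753 and 0.767). The lines themselves differed at Id1 by 1.65 (adjusted p = 0.000139) and at Id3 by 1.30 (adjusted p = 0.00316, edgeR). Bambi was lower in line 2 (log2 -0.69, adjusted p = 0.000303, edgeR), and its log2 fold change in line 1 was -0.18. Id4 in line 1 was called at 0.92 (adjusted p = 0.0196, edgeR), but its adjusted p was 0.339 without library 1_1, 0.06 without Control library 2_2 and 0.0774 in DESeq2. Smad6 in line 1, at -0.42, had an adjusted p of 0.187 without library 1_2 and 0.177 with spike-in scaling.

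Line 1 with the 48 h label had 5 members called (3 higher and 2 lower), where 62.1% of 22694 genes were, and line 2 had 7 (2 higher and 5 lower), where 54.0% were. Id2 was 26.3-fold above Control in line 1 and 7.78-fold in line 2, and Id4 was 7.99-fold and 5.26-fold below it. By this test Bmp4 and Id1 went in opposite directions in the lines, but the values called lower overlapped Control. Bmp4 in line 1, at 1.41 and 1.69 CPM, lay within the Control range of 1.29 to 4.93 CPM. Id1 in line 2, at 1.61 and 1.26 CPM, overlapped the Control range of 1.58 to 3.95 CPM. The Control lines themselves had log2 differences of -1.16 at Bmp4 and -1.08 at Id1 with this label. Bmp4 was lower in line 1 (log2 -0.92, adjusted p = 0.014) and higher in line 2 (log2 1.07, adjusted p = 0.00274, edgeR). Without library 1_1 of Mta123KO the Bmp4 value in line 1 was no longer called (adjusted p = 0.105, edgeR). Id1 was higher in line 1 (log2 1.21, adjusted p = 0.000128) and lower in line 2 (log2 -0.73, adjusted p = 0.0103, edgeR; 0.115 without library 2_2). Bmp7 was at the Control level in line 1 (log2 -0.08) and lower in line 2 (log2 -1.06, adjusted p = 0.000349, edgeR). Bmp2 was higher in line 1 by 1.52 (adjusted p = 0.0124, edgeR), with an adjusted p of 0.0967 without library 1_2 and 0.0527 in DESeq2. Smad6 and Bambi were lower in line 2, at -0.54 and -0.76, with adjusted p of 0.0279 and 0.000357 in edgeR. Smad6 was no longer called without library 2_1 (0.238), without Control library 2_2 (0.058) or with spike-in scaling (0.0553).

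**Figure D3:**
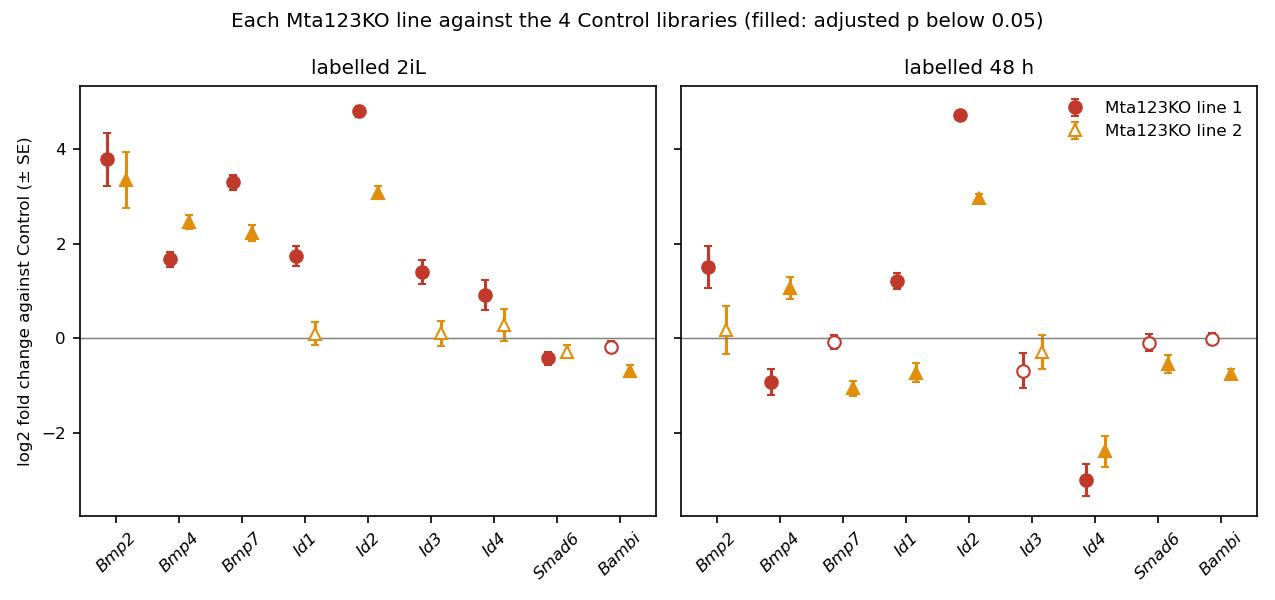
Log2 fold change with its standard error of each member in Mta123KO line 1 (red circles) and line 2 (orange triangles) against the 4 Control libraries of the same label, filled where the adjusted p was below 0.05. Id2 lies at 4.80 and 3.09 with the 2iL label and at 4.72 and 2.96 with the 48 h label, and Id4 at -3.00 and -2.39 with the 48 h label.

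The lines were compared directly as well. Mta123KO line 1 differed from line 2 at 6 of 9 members with the 2iL label (40.5% of all genes called) and at 5 of 9 with the 48 h label (33.0%). In both cultures line 1 was higher at Bmp7, Id1, Id2 and Bambi and lower at Bmp4. The Bmp4 difference was -0.78 with the 2iL label and -1.98 with the 48 h label (adjusted p = 0.00197 and 0.000567, edgeR), and the Id2 difference 1.72 and 1.76. Bambi differed by 0.51 with the 2iL label (adjusted p = 0.0111, edgeR; 0.129 without Mta123KO library 2_1 and 0.0617 without 1_2) and by 0.75 with the 48 h label (adjusted p = 0.00187, edgeR; 0.121 with spike-in scaling). The 2 Control lines differed at 2 of 9 members in each culture, where 4.58% and 3.65% of all genes were called. These were Bmp4 (log2 -0.90, adjusted p = 0.0338) and Id1 (log2 -1.61, adjusted p = 0.00514, edgeR) with the 2iL label and Id1 (log2 -1.08, adjusted p = 0.026) and Id2 (log2 0.80, adjusted p = 0.00804, edgeR) with the 48 h label. The Control difference at Bmp4 was lost without any 1 of the 4 Control libraries (adjusted p from 0.0574 to 0.168). That at Id1 labelled 48 h was lost without library 1_1, 1_2 or 2_1 (0.0939 to 0.109), and that at Id2 without library 1_1 or 2_2 (0.0581 and 0.0509).

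The wider pathway was read from lists of ligands, receptors, SMADs, antagonists and targets. The lists include members, among them Bmp4 and Bmp7 as ligands and Id2, Id3 and Id4 as targets, which are counted again here. The list counts stand beside a background of 27.1% of all genes that rose and 24.2% that fell in Mta123KO with the 2iL label. With the 48 h label the background was 26.6% and 23.4%. With lists this short nothing particular to a list is read from the counts. Of 16 BMP and GDF ligands, 10 were tested with the 2iL label and 6 rose and 2 fell in Mta123KO, with a median log2 fold change of 1.60 against 0.01 over all genes. The ligands Gdf5, known from joint formation, rose from 0.396 to 1.85 CPM (log2 2.24, adjusted p = 0.00305, edgeR) and Bmp6 fell from 2.01 to 0.529 CPM (log2 -1.91, adjusted p = 0.000127, edgeR). With the 48 h label 5 of 11 rose and 1 fell, Bmp8a among them, from 1.93 to 5.87 CPM (log2 1.61, adjusted p = 0.00506, edgeR). Of the receptors and co-receptors, 5 of 10 tested rose and 2 fell with the 2iL label, and 6 of 9 rose and 1 fell with the 48 h label. The type I receptor Acvrl1 rose in both (log2 2.26 and 1.79, adjusted p = 0.000133 and 0.00369, edgeR), and Acvr1 (log2 1.26) and the endothelial co-receptor Eng (log2 1.19, from 22.6 to 50.8 CPM) rose with the 2iL label. The co-receptor Rgma fell in both, most with the 48 h label, from 12.6 to 2.00 CPM (log2 -2.64, adjusted p = 6.64e-05, edgeR). Of the 4 SMAD transducers 3 rose in each culture and Smad9 fell with the 48 h label (log2 -1.98, adjusted p = 0.0118, edgeR).

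Among the 14 secreted antagonists, 3 of 8 tested rose with the 2iL label and 2 of 6 with the 48 h label, and none fell. Chrd, which encodes the BMP-binding protein Chordin, rose from 2.34 to 8.20 CPM with the 48 h label (log2 1.82, adjusted p = 3.02e-05, edgeR), and Nbl1 rose with both labels (log2 2.58 and 4.15, to 2.43 and 2.16 CPM). Among 12 BMP-SMAD target genes, 3 of 11 rose and 1 fell with the 2iL label and 3 of 12 rose and 2 fell with the 48 h label, where the shares that rose are near the 27.1% and 26.6% of all genes. Besides Id2, the homeobox gene Msx2 rose with both labels, from 0.352 to 4.61 CPM and from 1.45 to 6.72 CPM (log2 3.71 and 2.22, adjusted p = 0.00243 and 0.0065, edgeR). Msx1 rose with the 2iL label (log2 1.28) and Atoh8 with the 48 h label (log2 3.96, to 1.53 CPM). The median log2 fold change of the targets was 0.78 with the 2iL label and -0.08 with the 48 h label. Of the 5 intracellular inhibitors 1 rose and 1 fell with the 2iL label and 2 rose and 1 fell with the 48 h label. Of the 3 E protein genes, whose products the Id proteins bind, 1 rose and 1 fell with the 2iL label and 2 fell with the 48 h label.

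With culture in Control, 4 of 8 ligands were higher with the 48 h label and 3 lower, 4 of 10 receptors higher and 4 lower, and 6 of 11 targets higher and 1 lower, where 29.5% of all genes were higher and 29.0% lower. Beside Id3 and Id4, the higher targets included Msx2 (log2 2.04) and the inhibitory SMAD gene Smad7, at 33.6 CPM with the 2iL label and 106.5 CPM with the 48 h label (log2 1.68, standard error 0.09, adjusted p = 7.75e-08, edgeR). Smad7, which also stands in the list of intracellular inhibitors, differed by nearly the same amount in Mta123KO, at 20.3 and 64.8 CPM (log2 1.67, standard error 0.16, adjusted p = 0.00033, edgeR). Rgma was higher with the 48 h label in Control, at 3.40 and 12.6 CPM (log2 1.90), and had an interaction of -1.52 (adjusted p = 0.0239, edgeR). The activin and BMP antagonist Fst was also higher with the 48 h label in both, by 1.13 in Control and 1.42 in Mta123KO on the log2 scale. In Mta123KO 2 of 11 ligands were higher and 1 lower, and 1 of 12 targets higher and 1 lower, Msx1 (log2 -1.63), where 12.4% of all genes were higher and 10% lower. Of the lists, the interaction was positive for 1 and negative for 3 of 11 ligands, positive for 3 and negative for 2 of 10 receptors, positive for 2 of 10 antagonists and negative for 1 of 12 targets, Id4, where it was positive for 12.5% and negative for 10.6% of all genes. In Control, of the 4 SMADs 2 were higher and 1 lower, of 5 intracellular inhibitors 2 higher and 1 lower, of 6 antagonists 1 higher and 2 lower and of 3 E proteins 1 higher.

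The single mutants were each compared with their parent. In Mta1_del none of the 8 members tested was called, where 0% of 14561 genes rose and 0% fell in edgeR and 50 genes had an unadjusted p below 0.05. None of the 8 was called in DESeq2 either, and 1 of them, Id3, had an unadjusted p below 0.05 (log2 -0.80, standard error 0.31). The 3 numbered pairs of this series differed widely: Bmp4 was at 10.4, 5.54 and 23.7 CPM in Mta1_del and at 11.6, 11.5 and 19.4 CPM in Mta1_flox, while Mta2 and Mta3 series libraries held 0.388 to 1.59 CPM. Library 2 of Mta1_flox stood apart at Id2, with 6.63 CPM beside 1.09 and 1.18 CPM in the others, and it was the least deeply counted of the Mta1 libraries. Blocking on the replicate number, which pairs these libraries, called no member.

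In Mta2_KO all 8 members tested fell and none rose, where 24.3% of 15602 genes fell and 23.5% rose. Mta2_KO is a single ES line, so the p-values measure the spread between libraries. A difference between cell lines and the loss of Mta2 cannot be told apart. The median log2 fold change was -0.59 over the members and 0.00 over all genes. Id3 was counted at 10.2, 10.5 and 8.02 CPM in Mta2_KO and 16.6, 15.8 and 18.6 CPM in Mta2_WT (log2 -0.82, standard error 0.12, adjusted p = 0.000343, edgeR). Id4 stood at 5.72, 7.13 and 6.30 CPM against 10.3, 11.8 and 9.27 CPM (log2 -0.72, adjusted p = 0.00113, edgeR). Id1 stood at 1.68, 1.49 and 2.18 CPM against 2.94, 2.94 and 3.31 CPM (log2 -0.79, adjusted p = 0.00468, edgeR). Id2, the other Id gene, fell by less, at 0.45 on the log2 scale. Bmp4 fell most, from 1.44 ± 0.132 to 0.722 ± 0.0877 CPM (SD, n = 3), the only member with a log2 fold change past -1 (-1.0, standard error 0.22, adjusted p = 0.00468, edgeR). Smad6, Bambi and Bmp7 fell by 0.41, 0.34 and 0.33.

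In edgeR, Id2 was lost without library 1 or 2 of Mta2_KO or library 1 of Mta2_WT (adjusted p = 0.0749, 0.0661 and 0.0652). Bambi was lost without library 1 of Mta2_KO or 2 of Mta2_WT (0.0614 and 0.053), and Smad6 without library 3 of Mta2_KO or 2 of Mta2_WT (0.0553 and 0.0528), whereas Bmp7 was kept in all 6 such fits. In 1 fit of all 18 single-mutant libraries, which share 1 estimate of the spread, none of the 8 was called (adjusted p from 0.148 to 0.657), while the log2 fold changes stayed negative, from -0.33 to -1.0. Of the 12 targets, a list that holds members too, 8 of 11 tested fell and 1 rose in Mta2_KO (24.3% and 23.5% of all genes), 2 of 9 ligands and 2 of 8 antagonists fell, and Fst fell from 9.50 to 1.09 CPM (log2 -3.14, adjusted p = 7.89e-07, edgeR). Of the receptors 4 rose and 1 fell, of the intracellular inhibitors 1 rose and 3 fell, and no SMAD transducer changed by this test. The trophoblast markers summed to 3.86 to 5.04 CPM in Mta2_KO and 17.7 to 18.7 CPM in Mta2_WT, mostly from Cdx2 at 1.57 and 15.6 CPM. The mesoderm markers summed to 8.82 to 11.6 and 21.9 to 25.1 CPM, the naive markers to 3570 to 3699 and 4871 to 5178 CPM and the neural markers to 58.1 to 64.9 and 20.7 to 28.4 CPM. The part of these markers in the Mta2_KO results was not tested.

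In Mta3_del none of the 9 members passed in edgeR, where 8.32% of 15522 genes rose and 7.84% fell, and 1 of the 9 had an unadjusted p below 0.05, Bmp7. DESeq2 called this gene (adjusted p = 0.0172), which was at 11.4, 9.98 and 16 CPM in Mta3_del and 24.0, 13.1 and 28.2 CPM in Mta3_flox (log2 -0.86, standard error 0.28, adjusted p = 0.0644, edgeR). The groups overlapped through library 3 of Mta3_del and library 2 of Mta3_flox. The fibroblast markers summed to 10.1 to 13.3 CPM in Mta3_del and 17.99 to 64.7 CPM in Mta3_flox, with Col3a1 and Col1a1 called lower (log2 -6.09 and -2.15), and their part in the Bmp7 values was not tested. Id1 and Id3 had log2 fold changes of 1.30 and 0.88 with standard errors of 0.73 and 0.46. Of the other lists 1 receptor rose and 1 fell, 1 target fell and 1 E protein rose. The Rgma co-receptor, which fell in Mta123KO, was higher in Mta3_del, at 21.4 against 7.87 CPM (log2 1.38, adjusted p = 0.0208, edgeR).

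**Figure D4:**
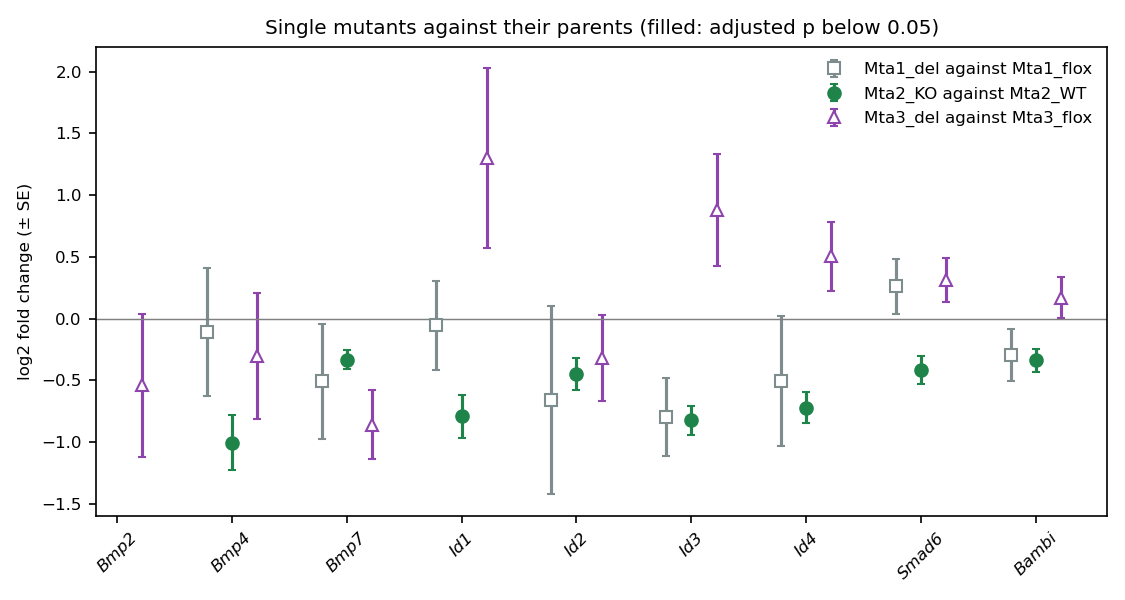
Log2 fold change with its standard error of each member in Mta1_del (grey squares), Mta2_KO (green circles) and Mta3_del (purple triangles) against the parent, 3 libraries a group, filled where the adjusted p was below 0.05. Only the Mta2_KO values are filled, from -0.33 at Bmp7 to -1.0 at Bmp4, and Bmp2 was tested in the Mta3 series alone.

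Id2 was not called higher in any single mutant, at 1.89 ± 0.649, 4.22 ± 0.674 and 5.79 ± 2.49 CPM in Mta1_del, Mta2_KO and Mta3_del (SD, n = 3), beside 44.7 ± 28.2 CPM in Mta123KO labelled 2iL (SD, n = 4). The sets were normalized separately and were not tested against each other. On the same footing, Id4 ranged from 4.46 to 19.2 CPM and Bmp7 from 9.98 to 44.5 CPM over the 18 single-mutant libraries, all labelled 2iL. Control labelled 48 h held 7.76 to 11.0 CPM of Id4 and 8.28 to 13.0 CPM of Bmp7, and Control labelled 2iL held 0.40 to 0.870 and 1.32 to 2.81 CPM. The naive markers summed to 3294 to 5907 CPM over the single-mutant libraries.

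Genes with the most similar pattern were taken as the 3 protein-coding genes with the highest Pearson correlation of log2 CPM with a member over the 16 libraries of the Mta123 set. These are descriptions, since the points share lines, cultures and genotypes. Id2 was most like Dennd1b, Nrk and Krt19 (r = 0.987, 0.986 and 0.984), of which Krt19 is an epithelial keratin that rose from 0.476 to 14.7 CPM with the 2iL label. Bmp7 was most like Urgcp, Llgl2 and Lrrc15 (0.959, 0.956 and 0.954), and Id4 like Atp1b1, Trmt44 and Tbc1d13 (0.971, 0.969 and 0.965). Bambi was most like Cers5, Ghdc and Man2a1 (0.921, 0.910 and 0.897) and Bmp4 like R3hcc1, Sugp1 and Taf4b (0.908, 0.905 and 0.905). For Id1 the genes were Tm2d2, Hsbp1 and Palm3 (0.895, 0.893 and 0.892), for Id3 Emc3, Rsrc1 and Fam107b (0.878, 0.869 and 0.850), and for Smad6 Clcc1, Nisch and Dhx34 (0.822, 0.821 and 0.811). Those for Bmp2, Capzb, Ubap2l and Spen (0.922, 0.914 and 0.913), changed entirely when the prior count was 0.5 in place of 2. Bmp2, Bmp4, Id1 and Id4 averaged under 5 CPM, the minimum set for a similar gene, and so could not be listed as such.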

How the data were processed

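RNA-seq was analysed in 34 mouse ES cell libraries. The authors deposited raw counts of reads per gene, 1 library per file, without normalization; per the labels and the study's methods, reads were trimmed with Trim Galore, aligned to GRCm38 (mm10) with TopHat2 and counted with featureCounts, from directional or stranded kits. The strand setting and the handling of reads with several alignments are not given in the sources used here. Totals set the precision: 1 CPM is at least 13 reads in every library, so members under 1 CPM rest on few reads.

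Symbols, exon lengths and coordinates came from GENCODE vM21 (GRCm38), which held 48349 of 48709 genes of the Mta123 set and 21852 of 22018 of the single mutants (Hjv is listed as Hfe2). Promoters are from RefSeq (GRCm38.p6), which gave 5 of the 9 members. Counts were fitted with edgeR 4.0.16 (R 4.3.3, TMM, filterByExpr, quasi-likelihood F test) over all genes, with the compared groups in a fit; Benjamini-Hochberg adjusted p below 0.05 is the call. Line comparisons used the 8 libraries of a culture. The fits were also run on simulated counts of independent libraries without line effects. That does not show how they behave with repeat libraries of a line. Standard errors are the absolute log2 fold change over the square root of F.

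All groups came from the sample labels. Members and gene lists were chosen with earlier results of these data known. The named genes are the 9 members, the targeted Mta genes, at most 4 genes per list and comparison (called, beyond a log2 fold change of 1 and reaching 1 CPM in either group) and the 3 most similar genes among those of mean CPM at least 5. In the culture comparisons the line number marks the same cell line: libraries of a line deviated from their group means together across genes (correlations 0.268 to 0.524 in Control and 0.683 to 0.735 in Mta123KO, against -0.495 to -0.309 and -0.724 to -0.674 between lines). In the Mta1 series same-numbered libraries also did (0.577 to 0.743). Deviations were taken from group means, so the negative correlations between lines follow from the positive ones within lines and add no separate evidence. Alternatives were DESeq2 1.42.0, RLE size factors, no filter, ERCC spike-in scaling (92 RNAs, Mta123 set), a replicate block, 1 fit per set, summed libraries of a line, a fold threshold and leaving out each library.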

Additional observations from a re-analysis of the deposited data

Results flagged for a closer look

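The effect of genotype differed between the culture labels at 3 members by the interaction test. The log2 difference, labelled 48 h minus labelled 2iL, was -2.54 for Bmp2, -3.34 for Bmp7 and -3.26 for Id4. For Bmp7 the genotype difference was present with the 2iL label and not called with the 48 h label, and for Id4 the reverse. The Bmp2 value rests on 0 to 46 reads per library and passed in 6 of 16 fits that each left out 1 library. With the line as a block, the Bmp4 interaction passed too. Of 36 groups of 4 libraries examined, 9 members in 4 groups, 1 held a library far from the other 3 by Dixon's criterion: Id4 in Control labelled 2iL, at 0.870 CPM in library 2_1 (42 reads) beside 0.40 to 0.457 CPM. Chance gives such a gap in about 1 of 20 groups.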

How the results depend on the processing

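Under the alternatives no called member changed direction. Of 657 member values under alternatives other than leaving out a library, 604 kept their side of the threshold, 19 lost the call and 34 gained it; of 1149 with a library left out the numbers were 1086, 41 and 22. A sign change between values that never passed the test occurred 65 times. The cause of these shifts was not tested. The replicate block, and the line as a block, raised the members called for culture in Mta123KO from 0 to 3, and DESeq2 and 1 fit of all libraries gave 1; over all genes the calls there went from 4817 to 9144 and 10252 with these blocks, 2795 with spike-in scaling and 0 with libraries of a line summed. The replicate block also called 1 member in Mta3_del, as did DESeq2, and leaving out a library gave 0 to 1. Its pairing does not hold between Mta123KO and Control (correlations of same-numbered libraries -0.252 to 0.00982 labelled 2iL and -0.130 to 0.0553 labelled 48 h), nor in the Mta2 and Mta3 series (-0.344 to 0.484 and -0.118 to 0.351); in the genotype comparison labelled 2iL it added Id3 (0.84). With 1 fit of all libraries 0 of 8 members were called in Mta2_KO, and 1 with the fold threshold. Spike-in scaling called 4 members in Mta123KO labelled 48 h in place of 2, adding Bmp7 (-0.64) and Id3 (-0.76). That scaling moved the median of all genes to -0.18 there, to 0.18 for culture in Control and to -0.22 for the interaction, and the share of calls that were higher from 53.2% to 44.2%, from 50.4% to 62.1% and from 54.3% to 41.1%. For the lines that share went from 51.6% to 63.5% (line 1 against Control) and 52.0% to 75.7% (Mta123KO lines) labelled 2iL, from 56.0% to 66.1% (Mta123KO lines) labelled 48 h, and from 38.1% to 18.6% and 54.6% to 33.5% between the Control lines. The median moved to 0.14, 0.20, -0.16 and -0.18 for line 1 and between the Mta123KO lines labelled 2iL and for lines 1 and 2 labelled 48 h, and to -0.19 in Mta3_del with DESeq2. Between the Control lines 0 members were called with spike-in scaling at 48 h and 4 with no filter at 2iL; leaving out a library gave 1 to 2 in each culture. Between the Mta123KO lines at 48 h no filter called 9.

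Over all genes, summing the libraries of each line cut the calls from 11115 to 3758 and from 10548 to 4085 (Mta123KO against Control, labelled 2iL and 48 h) and from 5306 to 710 (interaction, 9148 with the line as a block and 3364 with spike-in scaling). The fit of all single mutants cut 7460 to 2622 in Mta2_KO. In Mta3_del 2508 calls became 3, 4131 and 375 without library 1, 2 or 3 of Mta3_del and 964, 443 and 582 without those of Mta3_flox. With spike-in scaling the calls at 48 h went from 14090 to 8055 for line 1, from 12256 to 6241 for line 2 and from 7483 to 2132 between the Mta123KO lines, where leaving out a Mta123KO library gave 4390 to 4939. Between the Control lines no filter gave 2005 in place of 1067 and 1700 in place of 828, spike-in scaling 684 and 176, and leaving out a library as few as 441 and 436. Exon or longest-transcript length left Id3 or Id2 highest in each Mta123 group.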
